A study of Homo sapiens with 2 samples.

Results

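The SLC25 mitochondrial carriers were compared between PC9 and MTAC-P. PC9 is a human lung adenocarcinoma cell line with an activating EGFR deletion. MTAC-P was made from PC9 and is labelled resistant to EGFR-TKI, the kinase inhibitors used against such tumours. Every protein-coding symbol made of SLC25A and a number was taken, which gave 48 genes of the 30843 symbols in the tables. Of these, 34 averaged 1 FPKM or more across the libraries and were compared, among 10554 protein-coding symbols that reached the same level. Family members with other kinds of names, such as UCP2, are not in this set and are given among the related genes. Each line has 1 RNA-seq library here, although the series text speaks of triplicates, so none of the differences could be checked against replicates or tested. Both lines were grown in DMEM with serum, and the labels' protocols give no inhibitor treatment at harvest. The sources used here do not say whether MTAC-P is 1 clone or whether cultures were pooled.

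SLC25 proteins are small carriers, most of them in the inner mitochondrial membrane, that exchange or import metabolites which cannot cross that membrane by themselves. They move ADP and ATP, phosphate, citrate and other carboxylates, amino acids, iron and cofactors, and so join the respiratory chain and the citric acid cycle to the cytosol. Most are encoded in the nucleus without a cleaved targeting signal and are inserted through the TIM22 import complex.

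The values are FPKM, fragments scaled to transcript length and library size, and a gene's level is the sum of its listed transcripts. Differences are given as a log2 ratio, log2((MTAC-P + 1)/(PC9 + 1)), where a positive value is higher in MTAC-P. The pseudocount of 1 understates the difference of low genes. In such bulk libraries a difference in the cells present and a difference in RNA per cell cannot be told apart. The number of reads is unknown, so no interval can be given for a value. The sum of all listed FPKM was 693444 for PC9 and 685082 for MTAC-P. All 7 epithelial and lung adenocarcinoma markers were present in both, such as EPCAM at 161 and 156. Their summed level was 3525 in PC9 and 3769 in MTAC-P, most of it from KRT18 (log2 ratio 0.22). EGFR (0.28) was also higher in MTAC-P, and EPCAM (-0.05), KRT8 (-0.35), KRT19 (-0.35), CDH1 (-0.001) and CLDN4 (-0.53) were lower. The 4 leukocyte markers summed to 1.33 and 0.771, the 4 fibroblast markers to 1.10 and 1.39 and the 3 muscle markers to 0.122 and 0.0999. Of 3 endothelial markers CDH5 reached a mean of 1 (3.34 and 4.13), VWF stood at 0.0584 and 0.0494, and PECAM1 had no value here.

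The summed level of the carriers was similar in the 2 lines while single members lay on both sides of 0. Summed over all 48 genes the carriers stood at 1397 FPKM in PC9 against 1390 in MTAC-P, which is 0.201% and 0.203% of all listed values. SLC25A4, SLC25A5 and SLC25A6 made up 70.3% of that sum in PC9 and 68.3% in MTAC-P. Without them the other 45 genes stood at 415 and 441 FPKM. None of the 34 carriers compared reached 2-fold, where 6.37% of all protein-coding symbols compared did. UCP2, a family member outside this set, was past 2-fold lower (-1.40). At 1.5-fold, 4 carriers were higher in MTAC-P and 4 lower, where 18.3% of all symbols lay past it, 8.16% higher and 10.2% lower. At a pseudocount of 5 in place of 1, 1 of these 8 carriers, SLC25A28, stayed past 1.5-fold. The share of all symbols past 1.5-fold at that pseudocount is not given, and it too can be smaller. The median log2 ratio of the carriers was 0.05 against -0.02 over all symbols, with 19 above 0 and 15 below. The interquartile range of the carriers lay between -0.19 and 0.34, and that of all symbols lay between -0.27 and 0.22. Within 0.5 of 0 on the log2 scale lay 64.7% of the carriers, against 76.6% of all symbols.

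**Figure D1:**
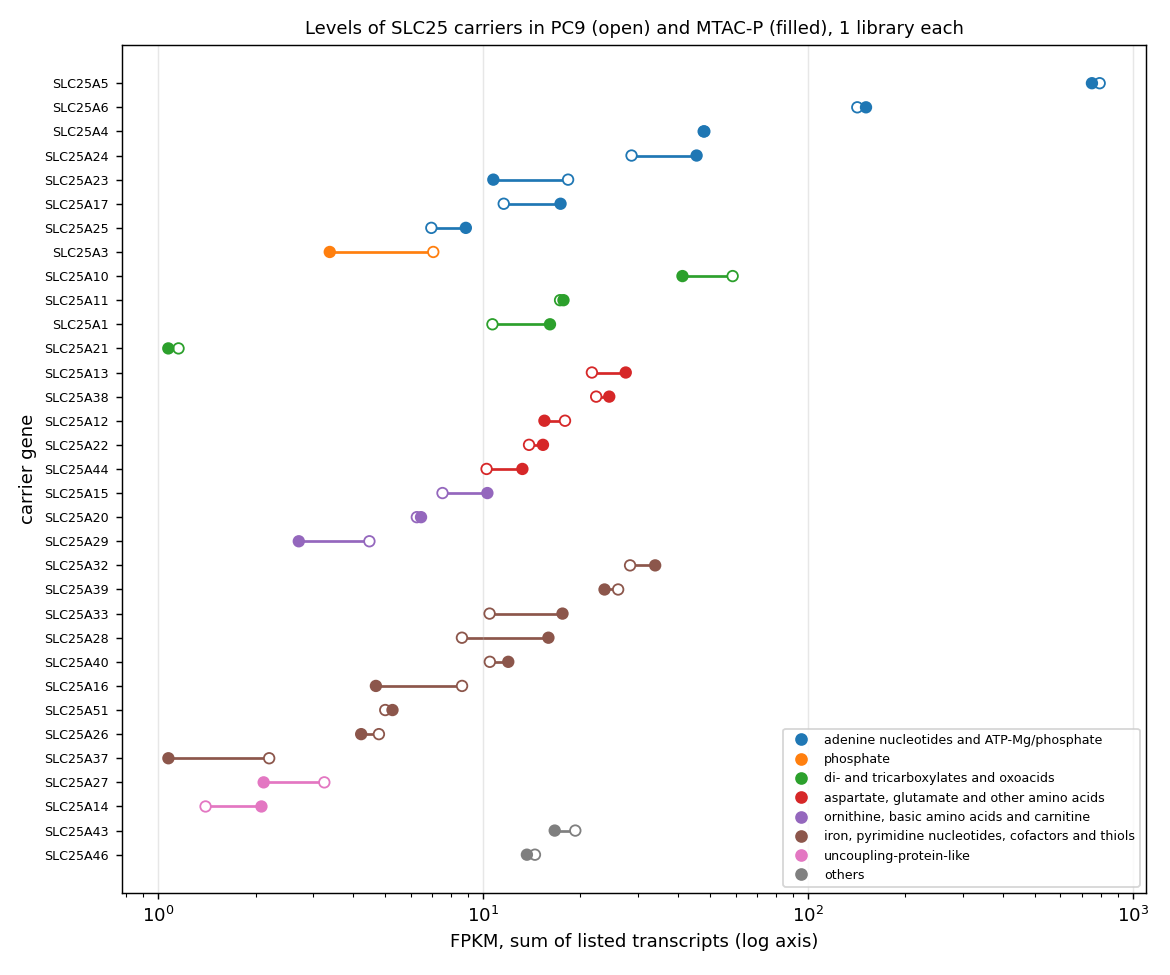
Levels of 33 of the carriers compared, on a logarithmic FPKM axis, with PC9 as open and MTAC-P as filled circles, 1 library each, and colours for substrate groups. SLC25A5 stands apart at 792 and 750 FPKM, and most other carriers lie between 1 and 60.

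In the listed transcripts, several carriers showed larger differences in which transcript was present than in their sum. The sequences of 2 such pairs are shown because they mark the bases by which each pair of transcripts can be told apart. They are written 5′ to 3′ on the strand of the gene, from GENCODE release 29 for GRCh38. Capitals in the longer form mark the coding bases that the shorter form lacks, and capitals in the shorter form mark the last and first base on either side of the junction that takes their place.

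In SLC25A28, which encodes mitoferrin 2, an iron importer (chromosome 10, 99610522 to 99620609, minus strand), SLC25A28-202 lacks a 229-base coding exon at 99613696 to 99613924, exon 2 of 4 in SLC25A28-201. GENCODE annotates SLC25A28-202 without a start codon.
SLC25A28-201: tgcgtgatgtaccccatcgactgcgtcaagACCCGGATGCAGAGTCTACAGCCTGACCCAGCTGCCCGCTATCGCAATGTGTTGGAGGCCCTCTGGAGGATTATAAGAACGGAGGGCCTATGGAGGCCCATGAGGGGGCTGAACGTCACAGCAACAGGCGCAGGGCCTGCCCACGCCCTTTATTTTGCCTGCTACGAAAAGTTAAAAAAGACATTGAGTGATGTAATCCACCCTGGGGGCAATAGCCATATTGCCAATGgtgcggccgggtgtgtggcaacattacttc
SLC25A28-202: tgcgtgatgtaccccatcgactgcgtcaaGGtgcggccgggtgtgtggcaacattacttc

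In SLC25A10, the dicarboxylate carrier (chromosome 17, 81712236 to 81721016, plus strand), SLC25A10-201 has 27 more coding bases at the start of exon 9, at 81717757 to 81717783.
SLC25A10-201: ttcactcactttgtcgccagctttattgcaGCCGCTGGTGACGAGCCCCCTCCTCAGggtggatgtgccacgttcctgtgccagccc
SLC25A10-202: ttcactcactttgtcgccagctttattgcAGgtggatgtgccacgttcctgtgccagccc

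The ADP/ATP carriers, which export ATP from mitochondria in exchange for ADP, included the most abundant carrier, SLC25A5, and the 3 detected were within 0.1 of 0 on the log2 scale. SLC25A5, the ubiquitous form (chromosome X, 119468400 to 119471319), stood at 792 FPKM in PC9 against 750 in MTAC-P, a log2 ratio of -0.08. It made up 56.7% of the summed carriers in PC9 and 54.0% in MTAC-P, and ranked 101 among all protein-coding symbols by mean level. SLC25A6 (chromosome X, 1386152 to 1392724) stood at 142 and 151 FPKM (0.09). SLC25A4, the form of heart and muscle (chromosome 4, 185143241 to 185150382), stood at 48.1 and 47.9 (-0.01), and its sign was positive with a common sum or with centring on the median. The order of their levels, SLC25A5 above SLC25A6 above SLC25A4, was the same in both libraries. The testis form SLC25A31 was listed at 0 in both. The coding sequences of SLC25A4, SLC25A5 and SLC25A6 have 894 bases each and were 77.2 to 78.7% identical, with no identical run above 29 bases. The 12 SLC25 pseudogene symbols in the tables, most of them copies of SLC25A5 and SLC25A6, were listed at 0 in both libraries. The sources used here do not say how reads shared with such copies were placed.

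The carriers of ATP-Mg and phosphate, which load mitochondria with adenine nucleotides in response to calcium, went different ways. SLC25A24 (chromosome 1, 108134036 to 108200849) stood at 28.7 FPKM in PC9 against 45.5 in MTAC-P, a log2 ratio of 0.65. SLC25A23 (chromosome 19, 6436079 to 6465203) stood at 18.3 and 10.8 (-0.71). SLC25A25 stood at 6.95 and 8.87 (0.31, or -0.46 with the leading transcript alone), and SLC25A41 was listed at 0 in both. In the summed transcripts SLC25A24 was thus higher and SLC25A23 lower by more than 1.5-fold, and their coding sequences share 63.1% of aligned bases. With the leading transcript alone both lay inside 1.5-fold, SLC25A24 at 0.35 and SLC25A23 at -0.45. The leading transcript of SLC25A23, the coding SLC25A23-202, stood at 13.1 and 9.30. SLC25A17, a carrier of cofactors in the peroxisomal membrane, stood at 11.6 and 17.4 (0.54). SLC25A42, a mitochondrial carrier of coenzyme A, lay under the mean of 1, at 0.890 and 0.287. Together with the ADP/ATP carriers above, these carriers form a group of 10, of which 7 were compared. Among those 7, 1 was at least 1.5-fold higher, 1 lower and the median was 0.09.

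SLC25A3, the phosphate carrier that supplies ATP synthase (chromosome 12, 98593591 to 98606379), had the lowest log2 ratio of the SLC25A-numbered carriers compared. It stood at 7.05 FPKM in PC9 against 3.38 in MTAC-P (-0.88), and at a pseudocount of 0.1 it passed 2-fold (-1.04). Of its 11 coding transcripts in GENCODE, 3 were listed. The 6087-base SLC25A3-203 held 86.0% of the listed level in PC9 and 95.1% in MTAC-P. Its level here is that of these transcripts, and 8 others were not analysed.

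Among the carriers of carboxylates, SLC25A10 and SLC25A1 differed in direction. SLC25A10, which exchanges malate and succinate for phosphate, stood at 58.8 FPKM in PC9 against 41.2 in MTAC-P (-0.50). SLC25A1, which exports citrate for fatty acid synthesis (chromosome 22, 19175575 to 19178830), stood at 10.7 and 16.1 (0.55). SLC25A11, which exchanges oxoglutarate for malate in the malate-aspartate shuttle, stood at 17.3 and 17.7 (0.03). None of the 4 reached 1.5-fold. SLC25A21, the oxodicarboxylate carrier, was the compared carrier nearest the minimum mean, at 1.16 and 1.08. SLC25A35, at 0.792 and 0.795, was the nearest below it.

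The carriers of aspartate, glutamate and other amino acids had 5 of 6 members compared, and all 5 lay within 0.5 of 0 on the log2 scale. SLC25A13, which encodes citrin, an exchanger of aspartate for glutamate (chromosome 7, 96120220 to 96322147), stood at 21.7 FPKM in PC9 against 27.6 in MTAC-P (0.33). Its close relative SLC25A12, an exchanger of the same kind (chromosome 2, 171784370 to 171999859), stood at 17.9 and 15.5 (-0.20). SLC25A38, which imports glycine for haem synthesis, stood at 22.4 and 24.5 (0.13). The glutamate carrier SLC25A22 stood at 13.9 and 15.3 (0.13). SLC25A44, which imports branched-chain amino acids, stood at 10.3 and 13.25 (0.34). SLC25A18, another glutamate carrier, lay under the mean of 1, at 0.456 and 0.262.

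Of the carriers of ornithine, basic amino acids and carnitine, 3 of 7 were compared and none reached 1.5-fold. SLC25A15, the ornithine carrier of the urea cycle, stood at 7.52 FPKM in PC9 against 10.3 in MTAC-P (0.41), from a transcript with no match in release 29. SLC25A20, which brings acylcarnitines in for fatty acid oxidation, stood at 6.27 and 6.46 (0.04). SLC25A29, which carries basic amino acids, stood at 4.48 and 2.72 (-0.56). The other 4, SLC25A2, SLC25A45, SLC25A47 and SLC25A48, stood at 0.301 or less in each library.

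Carriers of iron, pyrimidine nucleotides, cofactors and thiols held 5 of the 8 carriers at 1.5-fold. This was the largest group, with 10 of the 34 carriers compared, and 18.3% of all symbols lay past 1.5-fold. SLC25A28, mitoferrin 2, stood at 8.63 FPKM in PC9 against 15.9 in MTAC-P (0.81). SLC25A33, a carrier of pyrimidine nucleotides (chromosome 1, 9539482 to 9585179), stood at 10.5 and 17.6 (0.69). Both were higher in MTAC-P, and SLC25A33 has a single coding transcript in GENCODE, which was listed. In the other direction, SLC25A16, linked to coenzyme A transport (chromosome 10, 68477999 to 68527474), stood at 8.64 and 4.69 (-0.76). SLC25A37, mitoferrin 1 (chromosome 8, 23528805 to 23575463), stood at 2.20 and 1.08 (-0.62). Neither had a coding transcript listed: SLC25A16 had 1 processed transcript, and the level of SLC25A37 came from a transcript annotated for nonsense-mediated decay. Summed over listed transcripts the 2 mitoferrin genes lay on opposite sides of 0. With the principal transcript of SLC25A28 alone (-0.73) both lay below 0.

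The most abundant carriers of that group, SLC25A32 and SLC25A39, were within 1.5-fold, and so were SLC25A40, SLC25A26 and SLC25A51. SLC25A32, which imports folate and FAD, stood at 28.4 FPKM in PC9 against 33.95 in MTAC-P (0.25). SLC25A39, which imports glutathione, stood at 26.1 and 23.7 (-0.13, or 0.02 with the leading transcript alone), and its relative SLC25A40 at 10.5 and 11.99 (0.17). The S-adenosylmethionine carrier SLC25A26 stood at 4.79 and 4.23 (-0.15, or 0.18 with principal transcripts only). SLC25A51, which imports NAD, stood at 5.01 and 5.28 (0.06, or -0.13 with coding transcripts only), and its close copy SLC25A52 was listed at 0 in both. SLC25A36, the other pyrimidine nucleotide carrier, was listed at 0 in PC9 and at 2.2e-05 in MTAC-P, with 1 of its 5 coding transcripts listed.

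Carriers that resemble uncoupling proteins were low. SLC25A14 stood at 1.40 FPKM in PC9 against 2.09 in MTAC-P (0.36), SLC25A27 at 3.26 and 2.12 (-0.45), and SLC25A30 at 0.302 and 0.480. Of the rest, SLC25A46, an outer membrane protein that acts in mitochondrial shape, stood at 14.5 and 13.7 (-0.08) and SLC25A43 at 19.3 and 16.7 (-0.20). SLC25A34 and SLC25A53 stood at 0.121 or less in each library.

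**Figure D2:**
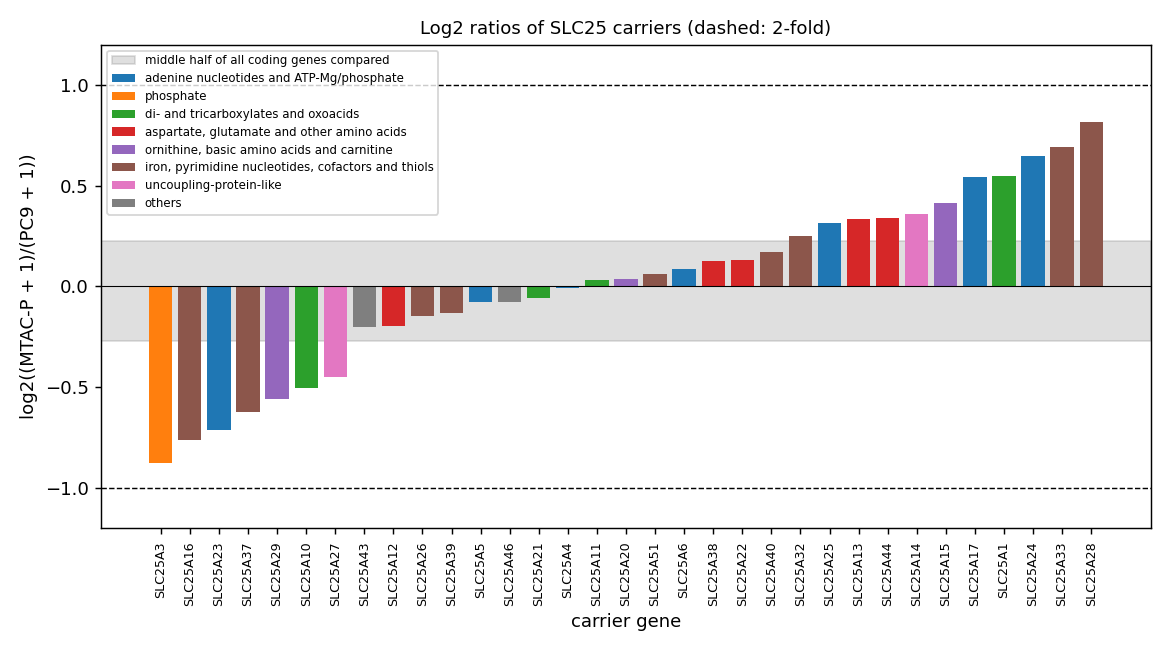
Log2 ratio of 33 of the carriers compared, ordered from lowest to highest, with colours for substrate groups, dashed lines at 2-fold and a grey band for the interquartile range of all protein-coding symbols. They run from -0.88 (SLC25A3) to 0.81 (SLC25A28), and none reaches a dashed line.

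A larger share of single transcripts than of genes passed 2-fold, both for the carriers and for all protein-coding symbols, of which 6.37% passed it as genes. The 48 genes had 108 listed transcripts, of which 54 had a mean of at least 1. Of these, 5 passed 2-fold upward in MTAC-P and 6 downward, 20.4% together. Of all transcripts of protein-coding symbols 15.9% did, 7.42% upward and 8.49% downward. The 11 carrier transcripts past 2-fold belonged to 9 genes. They were 5 coding, 4 annotated for nonsense-mediated decay and 2 with no match in release 29. One was marked as a principal form in GENCODE, SLC25A25-201, of 28 principal transcripts with that mean. The values of transcripts that share most of their exons are estimates of how shared reads are divided, and 3 of these 11 were listed at 0 in 1 library.

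The leading listed transcript of SLC25A28 was not the same in the 2 lines. SLC25A28-202, which lacks the 229-base exon shown above, stood at 0.948 FPKM in PC9 against 11.7 in MTAC-P, a log2 ratio of 2.71. SLC25A28-201, with the exon, stood at 7.68 and 4.22 (-0.73). The share of SLC25A28-202 in the gene was 10.99% in PC9 and 73.5% in MTAC-P. The higher sum of SLC25A28 in MTAC-P thus rests on SLC25A28-202, and the principal transcript SLC25A28-201 was lower in MTAC-P.

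SLC25A13 and SLC25A10 also differed more in a minor transcript than in the leading one. In SLC25A13 the minor SLC25A13-202 made up 1.12% of the gene in PC9 (0.244 FPKM) and 18.8% in MTAC-P (5.17 FPKM). The leading SLC25A13-201 stood at 21.4 and 22.4 (0.06). In SLC25A10 the form with 27 more bases stood at 5.02 and 1.51 (-1.26), a share of 8.54% and 3.67%, and the leading SLC25A10-202 at 53.8 and 39.7 (-0.43).

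SLC25A17 and SLC25A12 held transcripts annotated for nonsense-mediated decay that differed between the lines. In SLC25A17 (chromosome 22, 40769630 to 40819399), SLC25A17-206 had 1.6e-05 FPKM in PC9 against 7.67 in MTAC-P. SLC25A17-205 stood at 3.03 and was listed at 0 in MTAC-P, and SLC25A17-204 stood at 2.08 and 0.0201. The principal SLC25A17-210 stood at 5.71 and 7.29 (0.30). In SLC25A12 the principal SLC25A12-202 stood at 11.2 and 15.5 (0.44), and SLC25A12-203 had 2.86 FPKM in PC9 against 0 in MTAC-P. With annotated coding transcripts only, the log2 ratio of SLC25A12 was 0.44 in place of -0.20, so its direction depends on which transcripts are summed. In SLC25A24 the decay SLC25A24-201 had a log2 ratio of 0.35 and the coding SLC25A24-202 one of 0.98, from 11.2 to 22.9 FPKM. For SLC25A25, transcript SLC25A25-203 stood at 5.17 and 3.50 (-0.46) and SLC25A25-201 at 0.800 and 2.66 (1.02). Transcripts with no match in release 29 were also 2-fold lower in SLC25A23 (2.76 and 0.00268) and SLC25A27 (2.21 and 1e-06). Another unmatched transcript of SLC25A27 went the other way, from 0.464 FPKM to 1.83 (0.95), and made up 86.2% of the gene in MTAC-P. As the leading transcript it turned the log2 ratio of SLC25A27 from -0.45 to 0.95.

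**Figure D3:**
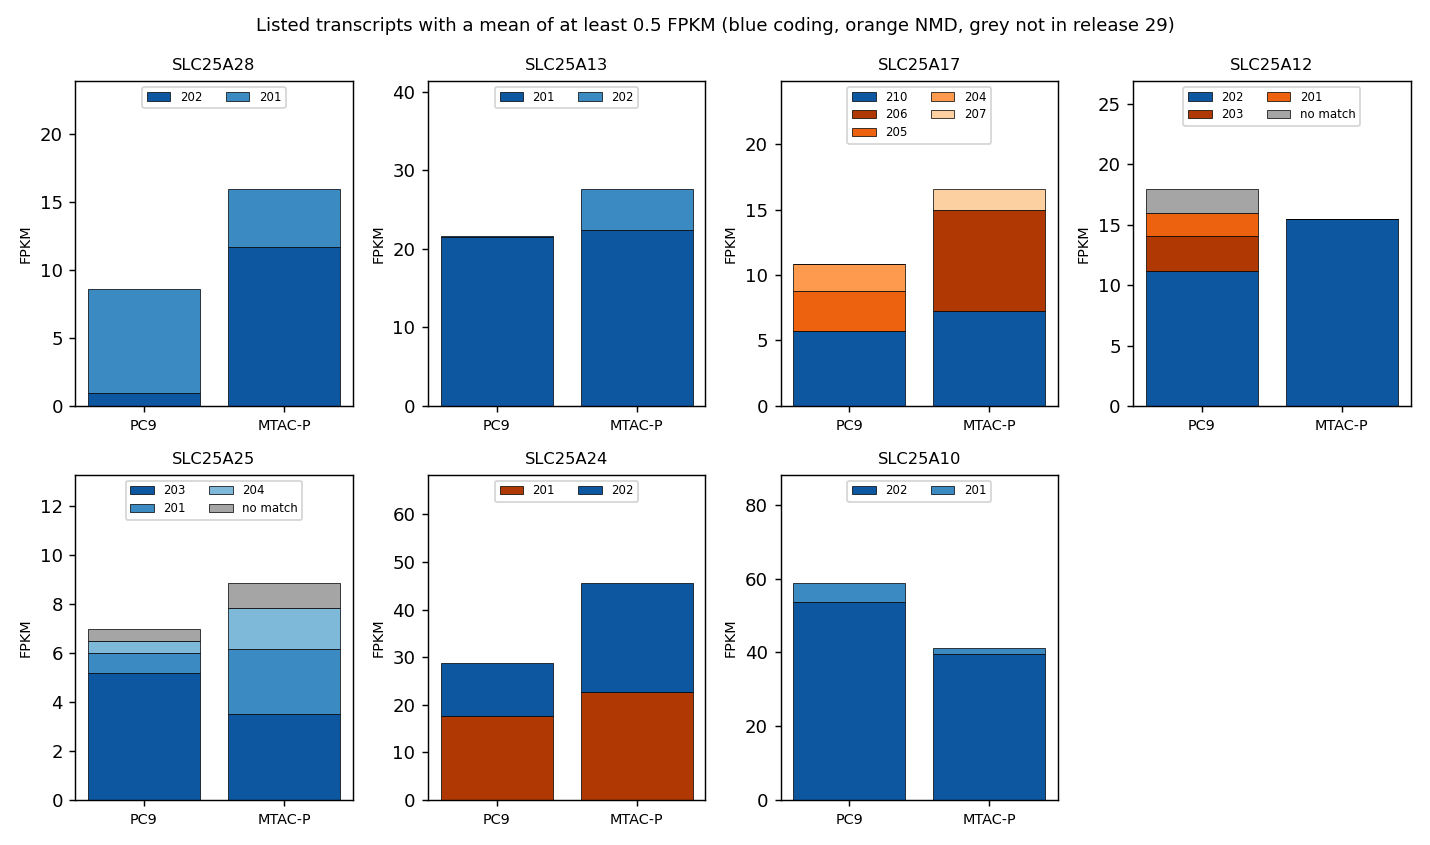
Stacked FPKM of the listed transcripts with a mean of at least 0.5 in 7 carriers, PC9 on the left and MTAC-P on the right of each panel, 1 library each, with blue for coding, orange for nonsense-mediated decay (NMD) and grey for transcripts with no match in release 29. SLC25A28-202 is at 0.948 and 11.7 FPKM and SLC25A28-201 at 7.68 and 4.22.

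The listed part of each gene differed among the carriers. All coding transcripts of GENCODE were listed for 15 of the 34 carriers compared, and for 19 a part or none. In the first 15 the log2 ratios ran from -0.20 to 0.81 with 13 within 0.5 of 0. In the other 19, 9 lay within 0.5 of 0. All 4 carriers at least 1.5-fold lower, SLC25A3, SLC25A16, SLC25A23 and SLC25A37, were among the 19, and so were 2 of the 4 higher. Of all 10554 protein-coding symbols compared, 2535 had all coding transcripts listed. The part of the missing transcripts in these values was not tested.

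Carriers on chromosome 1 were higher in MTAC-P together with their neighbours. The 3 compared there, SLC25A33, SLC25A24 and SLC25A44, had log2 ratios of 0.69, 0.65 and 0.34. The 12 coding genes compared on either side had medians of 0.18, 0.32 and 0.18, and all 1069 coding symbols compared on chromosome 1 had a median of 0.17, with 724 above 0. Without chromosome 1 the 31 other carriers had a median of 0.03. On chromosome 22 SLC25A1 and SLC25A17 had log2 ratios of 0.55 and 0.54, where the neighbours of SLC25A1 had a median of 0.24 and those of SLC25A17 -0.08. Over all 34 carriers, 19 had the same sign as the median of their neighbours. The part of chromosome copy number in these values was not tested.

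Genes that work with the carriers mostly stood within 2-fold too. Of the 86 compared in 6 lists, none passed 2-fold upward and 3 passed it downward, where 2.86% and 3.51% of all symbols were. Their median log2 ratio was -0.11, with 30 above 0 and 56 below. The 11 genes of the import route for carriers had a median of -0.16 and 8 below 0. Of these TOMM20, a receptor of the outer membrane, stood at 183 FPKM in PC9 against 201 in MTAC-P (0.14), and TOMM22 at 102 and 113 (0.15). The 16 ATP synthase genes, with a median of -0.08 and 12 below 0, were led by ATP5J2 at 1130 and 1086 (-0.06) and ATP5G3 at 768 and 728 (-0.08). None of the 16 had all of its coding transcripts listed. The 4 genes of calcium entry had a median of -0.19, with MCU, the channel of the uniporter, at 27.1 and 22.9 (-0.23).

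The 3 genes at 2-fold were a carrier of the same family and 2 enzymes. UCP2, an SLC25 protein named for its likeness to the uncoupling protein, stood at 3.96 FPKM in PC9 against 0.881 in MTAC-P (-1.40). It was the 1 gene at 2-fold among 17 other mitochondrial carriers and channels, whose median was -0.07. IDH1, which makes cytosolic oxoglutarate and NADPH from isocitrate, stood at 68.4 and 28.5 (-1.23). CPT1A, which makes the acylcarnitines that SLC25A20 carries, stood at 11.9 and 5.34 (-1.02). They were the 2 at 2-fold among 29 enzymes that share substrates with carriers, whose median was -0.13. Like most symbols compared, these 3 genes did not have all of their coding transcripts listed. The 9 regulators of mitochondrial gene programmes had a median of 0.01, with TFAM, the mitochondrial transcription factor, at 83.2 and 95.0 (0.19) and TFB2M, which acts with it, at 35.4 and 42.5 (0.26). PPARGC1A, a coactivator of mitochondrial biogenesis, stood at 0.00628 and 0.00217.

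**Figure D4:**
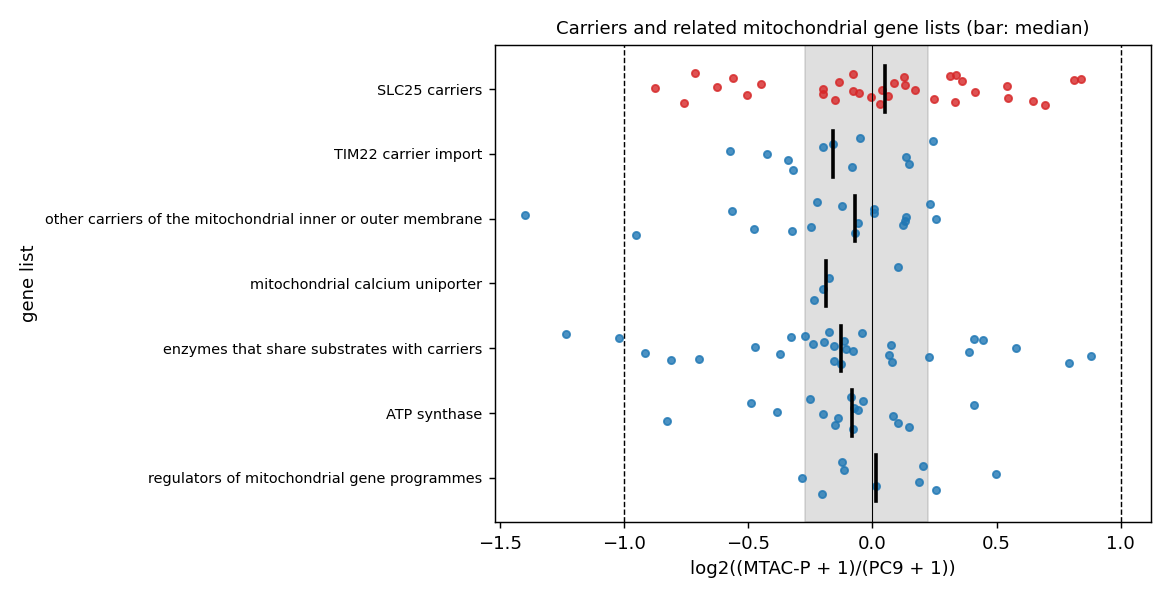
Log2 ratios of the 34 carriers (red) and of 6 lists of related mitochondrial genes (blue), 1 point per gene, with black bars for medians, dashed lines at 2-fold and a grey band for the interquartile range of all protein-coding symbols. The median of the carriers is 0.05 and those of the lists run from -0.19 to 0.01.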

How the data were processed

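RNA-seq tables of PC9 and MTAC-P were used, 1 library per line, each assigned to its line from the sample record of its file. The submitters' processing notes name the build hg38 and the tools Cufflinks, TopHat and Trim Galore, without versions. The authors deposited 1 value per transcript, taken as FPKM because Cufflinks is named. The tables do not name the unit, hold no counts, and end after 65535 transcripts, and later transcripts were not analysed here. Rows with the biotype protein_coding were summed per symbol, and 25 symbols turned into dates were left out. GENCODE release 29 (GRCh38) gave positions, transcript types and sequences. Of the listed IDs 84.5% matched it. Genes at a mean of at least 1 were compared as log2((MTAC-P + 1)/(PC9 + 1)) with Python 3.11.15 and pandas 2.3.3, and coding sequences were aligned with Biopython 1.88. Only the comparison step was run on simulated data, noise-free values with set 4-fold changes. That checks its arithmetic and not the spread between libraries or the other steps. Named were carriers with a mean of at least 1, transcripts of carriers at 1.5-fold or 2-fold, and of each related list the members at 2-fold or else the 2 most abundant; a few others were named after their values were seen. The members and lists were chosen with earlier results of these data known. A few genes and sequences are not reported here by name but remain in the counts and medians.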

Additional observations from a re-analysis of the deposited data

How the results depend on the processing

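No paired analysis was possible because a single library stands for each line, and for the same reason no replicate could be left out. Of 16 alternatives 14 gave log2 ratios, 10 to 14 for each carrier. Under those, 25 of the 34 carriers kept their sign and 9 changed it under at least 1, and the median of the carriers ran from 0.01 to 0.11. A change of pseudocount or of the genes kept cannot turn a carrier's sign. A choice of transcripts cannot turn it where 1 transcript is listed. The count of kept signs is thus partly fixed in advance. At a pseudocount of 0.1, 1 carrier passed 2-fold downward (SLC25A3, -1.04), with 604 symbols of all lower. At a pseudocount of 5, 7 of the 8 carriers past 1.5-fold fell inside it, and the share of all symbols past 1.5-fold there is not given. At 2-fold with that pseudocount, 119 symbols were higher, 115 lower and 1 related gene lower. The counts that follow are also at 2-fold unless another fold is named. With a mean of at least 5, 177 symbols were higher and 192 lower. With the leading transcript alone, 1 of 34 carriers was higher (SLC25A28, 2.71), where 396 of 10247 symbols were higher and 463 lower. The medians of other carriers and of regulators were then 0.069 and 0.21. With all coding transcripts listed, 15 carriers and 2535 symbols were compared, 73 symbols were higher and 73 lower, 0 related genes were lower, and the medians of the import route and of regulators were 0.14 and -0.12, while ATP synthase gave no value. At 1.5-fold, 4 carriers were higher and 4 lower, 861 symbols higher and 1073 lower, and 2 related genes higher and 8 lower. At 4-fold, 55 symbols were higher, 45 lower and 0 related genes lower. With principal transcripts only, added after seeing the data, 1 of 28 carriers was higher (SLC25A25, 1.02), where 282 of 8728 symbols were higher and 292 lower. The alternatives without chromosome 1 and with annotated coding transcripts only were also added after seeing the data. Apart from the fewer genes or transcripts an alternative keeps, the cause was not tested. The depth is unknown, and no interval limits a value near 1 FPKM.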
